A study of Mus musculus with 12 samples.

Results

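Jph4, Faim2, Adamtsl1, Pdzd7 and Kctd4 are 5 genes outside the myelin gene lists that stood among the clearest falls when oligodendrocytes lacking Jab1 were compared with WT oligodendrocytes. They are 5 of the 55376 gene symbols of the count table and 5 of the 17716 genes tested. Jph4 and Faim2 were chosen by their rank in Cnp-Cre Jab1fl/fl mutants against WT, and Adamtsl1, Pdzd7 and Kctd4 by their rank in Cnp-Cre Jab1fl/fl p21CIP1-/- double mutants against WT. In those contrasts the fall of each gene is the reason it is described, not a finding.

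RNA-Seq was performed on brain cells of C57BL/6 mice killed at P40, sorted by FACS as live O1+ CD45- cells, with 4 samples for each of 3 genotypes and the cells of 2 brains pooled in each sample. WT samples served as controls. In Cnp-Cre Jab1fl/fl samples, Cre is expressed under control of Cnp, a gene switched on as oligodendrocyte precursors (OPCs) mature and kept on in oligodendrocytes, and deletes Jab1 (Cops5). Double mutants carry the same alleles and in addition lack p21CIP1 (Cdkn1a) in all cells of the body. The 3 genotypes share age and sort and are given as C57BL/6. The paper lists the line of the p21CIP1 deletion under another strain, with backcrosses, and only double mutants carry it. No group carried the p21CIP1 deletion alone. JAB1 is the catalytic subunit of the COP9 signalosome, which removes the ubiquitin-like protein NEDD8 from cullin ubiquitin ligases, and p21CIP1 is an inhibitor of cyclin-dependent kinases.

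The 5 genes encode unrelated proteins. Junctophilins such as JPH4 hold the plasma membrane close to the endoplasmic reticulum, where calcium is stored and released. FAIM2 is a membrane protein of the TMBIM family known for inhibiting cell death through the receptor Fas, mainly in neurons. ADAMTSL1 is a secreted matrix protein that resembles the ADAMTS proteases but has no protease domain, PDZD7 is a scaffold of the ankle links of hair cells in the inner ear and a partner of Usher syndrome proteins, and KCTD4 belongs to a family of proteins with a BTB domain, several of which act as adaptors of cullin 3 ubiquitin ligases.

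The genes lie on 4 chromosomes (GRCm38 coordinates, GENCODE M21). Jph4 (ENSMUSG00000022208) is at chr14:55106826-55116935 on the minus strand and has 6 exons. Kctd4 (ENSMUSG00000046523), on the plus strand of the same chromosome at chr14:75955009-75966206, has 2 exons. Faim2 (ENSMUSG00000023011) is at chr15:99497012-99528165 on the minus strand with 12 exons. Adamtsl1 (ENSMUSG00000066113), at chr4:85514172-86428385 on the plus strand, has 29 exons and spans 914214 bases. Pdzd7 (ENSMUSG00000074818) is at chr19:45026906-45045717 on the minus strand with 16 exons.

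Promoter sequences of RefSeq (GRCm38.p6) were matched for Jph4 and Pdzd7, 2 of the 5 genes. They are shown because no promoter was matched for the other genes. Both sequences hold the same 6-base E-box. The 250 bases before the RefSeq start of each gene are written on the strand of the gene, with the palindrome CAGCTG in capitals. The Jph4 sequence is chr14:55116936-55117185 and the Pdzd7 sequence is chr19:45045773-45046022, both on the minus strand.
Jph4: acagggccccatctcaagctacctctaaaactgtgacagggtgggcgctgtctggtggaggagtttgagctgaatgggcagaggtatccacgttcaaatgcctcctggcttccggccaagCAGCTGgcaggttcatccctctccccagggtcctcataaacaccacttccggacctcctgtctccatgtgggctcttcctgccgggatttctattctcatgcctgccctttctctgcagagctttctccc
Pdzd7: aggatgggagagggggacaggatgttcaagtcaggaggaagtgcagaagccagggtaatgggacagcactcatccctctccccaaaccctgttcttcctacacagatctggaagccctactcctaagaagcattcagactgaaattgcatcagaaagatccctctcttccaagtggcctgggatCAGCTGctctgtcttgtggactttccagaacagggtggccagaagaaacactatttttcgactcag
The E-box starts 130 bases before the RefSeq start of Jph4, which is also its GENCODE start, and 66 bases before the RefSeq start of Pdzd7, which lies 55 bases upstream of the GENCODE start given above. It was found in 13.0% of the 32851 promoters of this length, so its presence in both is a description of these sequences and not a site of a factor. Neither sequence held the other motifs searched on both strands, which were the letters CTGGCAC (in 4.2% of all promoters of this length), the SOX-type motif ACAAAG (16.5%), the cyclic AMP response element TGACGTCA (1.5%), the GC box GGGCGG (32.7%) or the TATA-box letters TATAAA (12.4%). The GC content was 56.8% for Jph4 and 50.8% for Pdzd7, with 5 and 1 CpG dinucleotides, against a median over all promoters of 52.4% and 6.

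The count tables held 61485556 to 153495112 counts per sample. Cops5, the gene targeted, was measured at 103 ± 39.7 CPM (SD, n = 4) in WT, 66.9 ± 18.0 CPM in Jab1 mutants and 58.6 ± 21.5 CPM in double mutants, and neither difference from WT passed the edgeR test (log2 fold change −0.62 ± 0.36 SE, adjusted p = 0.349, and −0.82 ± 0.39, adjusted p = 0.424). Cops5 ranged over 46.3 to 133 CPM in WT, 45.0 to 89.0 CPM in Jab1 mutants and 44.2 to 90.4 CPM in double mutants, so the groups overlapped and the deletion cannot be checked from these values. Cdkn1a was still counted in double mutants, at 64.7 to 103 CPM, against 379 to 637 CPM in Jab1 mutants and 16.0 to 85.3 CPM in WT. Which of these reads fall on the deleted sequence is not known from a count per gene. By qPCR in sorted O1+ cells, the paper reports lower Cops5 in Jab1 mutants and undetectable Cdkn1a in double mutants. The 15 markers of mature oligodendrocytes were detected in all 12 samples and summed to 40598 to 96613 CPM in WT, 9104 to 35090 CPM in Jab1 mutants and 16619 to 52462 CPM in double mutants. RNA of cells other than oligodendrocytes was also measured. The 12 astrocyte markers summed to 6380 to 16279 CPM in WT, and the 15 microglial markers summed to 96 to 279 CPM in WT, 1112 to 2712 CPM in Jab1 mutants and 386 to 18534 CPM in double mutants, with the highest value in double mutant replicate 3. None of the 15 microglial markers was at 0 in any sample.

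Jph4 was measured at 49.1, 52.4, 94.2 and 63.1 CPM (counts scaled to library size with TMM factors) in the 4 WT samples. The 4 Jab1-mutant samples held 5.82, 4.19, 3.05 and 6.68 CPM, and the double mutants 29.1, 10.8, 8.81 and 4.01 CPM. All mutant samples lay below all WT samples, while the double mutants spread from inside the range of the Jab1 mutants to well above it, with replicate 1 the highest. The means were 64.7 ± 20.5 CPM (SD, n = 4) in WT, 4.94 ± 1.63 CPM in Jab1 mutants and 13.2 ± 10.99 CPM in double mutants. The log2 fold change in Jab1 mutants, by which the gene was chosen, was −3.71 ± 0.39 (SE; edgeR, adjusted p = 0.000738), the first in rank among genes that were lower.

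Faim2 was the most abundant of the 5 genes. The WT samples held 97.0, 289.6, 288.0 and 105.5 CPM and fell into a low and a high pair. Jab1 mutants held 7.54, 22.1, 6.86 and 12.1 CPM, and double mutants 65.8, 41.8, 31.6 and 41.2 CPM, so that the 3 genotypes did not overlap and the double mutants lay between the others. The means were 195.0 ± 108 CPM (SD, n = 4), 12.2 ± 7.05 CPM and 45.1 ± 14.6 CPM. The log2 fold change in Jab1 mutants that chose Faim2 was −4.00 ± 0.54 (SE; edgeR, adjusted p = 0.00265), the third in rank among lower genes.

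Adamtsl1 was measured at 46.1, 72.7, 88.5 and 42.0 CPM in WT. In Jab1 mutants it was at 1.21, 4.37, 0.0883 and 0 CPM, from 95, 525, 6 and 0 counts, and the 0 counts of replicate 4 allow up to 0.0403 CPM (3 counts). Double mutants held 14.5, 12.2, 7.99 and 7.50 CPM, above every Jab1 mutant and below every WT sample. The spread among Jab1 mutants was therefore large relative to their mean of 1.42 ± 2.04 CPM (SD, n = 4), compared with 62.3 ± 22.1 CPM in WT and 10.6 ± 3.39 CPM in double mutants. The contrast that chose the gene, double mutants against WT, gave a log2 fold change of −2.58 ± 0.37 (SE; edgeR, adjusted p = 0.0404), the first in rank among lower genes.

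Pdzd7 was the least abundant, and its values rest on few reads. The WT samples held 330, 440, 498 and 342 counts, or 2.99, 2.84, 4.92 and 3.71 CPM. In Jab1 mutants replicates 1 to 3 held 0 counts and replicate 4 held 14 counts (0.188 CPM), and all 4 double mutants held 0 counts. Against the floor of 3 counts per library, which averaged 0.0291 CPM, the level in double mutants was at least 124-fold lower than the WT mean of 3.62 ± 0.951 CPM (SD, n = 4). It was chosen by the double mutant contrast (edgeR adjusted p = 0.0404, the second in rank among lower genes). Only the 4 WT samples reached 1 CPM, so the gene passed the filter on low values solely through the group in which it is high.

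Kctd4 was measured at 64.0, 33.7, 118 and 52.2 CPM in WT. Jab1 mutants held 8.85, 3.78, 9.13 and 4.98 CPM, and double mutants 10.3, 7.37, 6.50 and 14.9 CPM. Both mutant genotypes were low and overlapped each other, and neither reached the lowest WT sample. The means were 67.0 ± 36.3 CPM (SD, n = 4) in WT, 6.68 ± 2.71 CPM in Jab1 mutants and 9.75 ± 3.78 CPM in double mutants. The double mutant contrast that chose Kctd4 gave a log2 fold change of −2.80 ± 0.45 (SE; edgeR, adjusted p = 0.0437), the third in rank among lower genes.

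**Figure D1:**
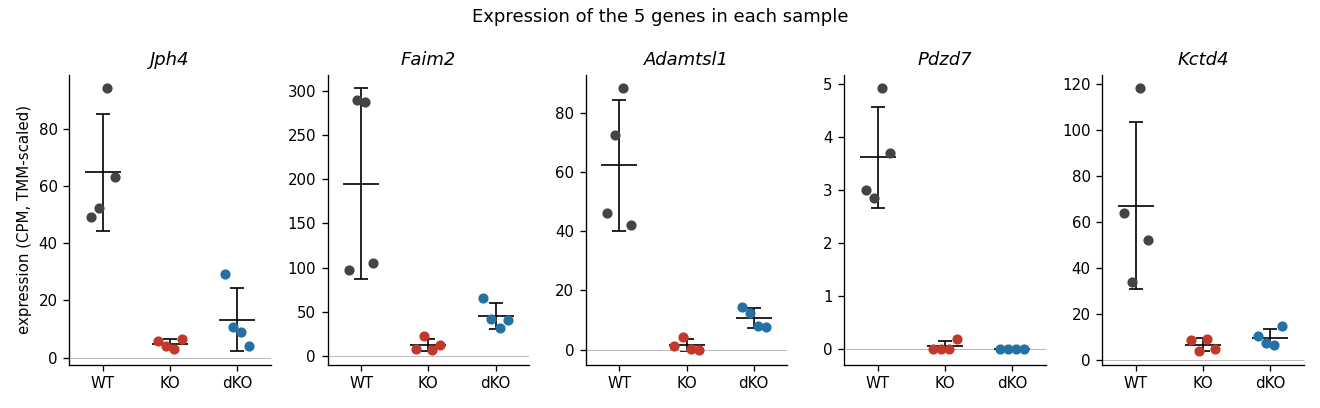
Expression in CPM of the 5 genes on linear axes that differ between panels. Points are samples (4 for each of WT, Jab1 mutants, labelled KO, and double mutants, labelled dKO), horizontal bars are means and vertical bars SD. In each panel all mutant points lie below the lowest WT point, and in the Faim2 and Adamtsl1 panels every dKO point lies above every KO point.

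Levels were also compared per length, using the summed exon length of each gene. In WT, Faim2 stood at 41.8 ± 23.2 CPM per kilobase (SD, n = 4), Kctd4 at 16.8 ± 9.08, Jph4 at 14.1 ± 4.47, Adamtsl1 at 7.49 ± 2.66 and Pdzd7 at 1.11 ± 0.291 CPM per kilobase. The neighbours Kctd4 and Jph4 differed by less than their spread. These WT levels corresponded to percentiles 90.2, 77.3, 74.2, 60.7 and 21.8 of the 17558 tested genes with a length. In Jab1 mutants the order was Faim2 at 2.61 ± 1.51, Kctd4 at 1.67 ± 0.678, Jph4 at 1.07 ± 0.354, Adamtsl1 at 0.170 ± 0.246 and Pdzd7 at 0.0144 ± 0.0288 CPM per kilobase, where each step between neighbours was within the larger SD of the pair, except that from Jph4 to Adamtsl1. In double mutants Faim2 at 9.67 ± 3.12 CPM per kilobase was followed by Jph4 at 2.87 ± 2.39, Kctd4 at 2.44 ± 0.944 and Adamtsl1 at 1.27 ± 0.407, and Pdzd7 was at 0.

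Each comparison was read against all genes tested. In Jab1 mutants against WT, 2.46% of the 17716 genes were called lower and 5.19% higher. Lower calls included 4 of the 5 genes, of which Jph4 and Faim2 had been chosen there. Kctd4, chosen in the other contrast, had a log2 fold change of −3.33 ± 0.47 (SE; edgeR, adjusted p = 0.00337) and Adamtsl1 one of −5.44 ± 1.28 (adjusted p = 0.0269). These values share the 4 WT samples with the contrast that chose both genes and are no independent evidence of a fall. Pdzd7 missed the threshold (adjusted p = 0.0571). The mean CPM was 10.0-fold lower for Kctd4, 13.1-fold for Jph4, 16.0-fold for Faim2 and 44.0-fold for Adamtsl1.

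Of the members called in Jab1 mutants, Adamtsl1 alone lost its call in fits that left out a sample. Its call was lost without WT replicate 3 (log2 fold change −5.39, edgeR adjusted p = 0.0666), WT replicate 5 (−5.23, 0.0646), Jab1-mutant replicate 1 (−5.37, 0.0681) or Jab1-mutant replicate 3 (−5.06, 0.0535). In these fits the lower calls over all genes tested also went from 435 to 239, 174, 230 and 228, in the same order. Without Jab1-mutant replicate 2 the log2 fold change of Adamtsl1 was −7.17 (0.00741), with 667 lower calls over all genes. Without Jab1-mutant replicate 4 the edgeR adjusted p of Pdzd7 was 0.00978, a value that sets WT against 3 samples at 0 counts in a gene that passed the filter through WT alone and is given as a description. The calls of Jph4, Faim2 and Kctd4 were kept in all 8 fits that left out a sample.

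In double mutants against WT, 0.0169% of the genes were called lower, which are the 3 genes Adamtsl1, Pdzd7 and Kctd4 themselves, and 0.175% were called higher. Jph4 and Faim2, chosen in Jab1 mutants, did not pass the threshold here. Their log2 fold changes were −2.31 ± 0.55 for Jph4 (SE; edgeR, adjusted p = 0.124, 95% interval −3.53 to −1.10) and −2.13 ± 0.44 for Faim2 (adjusted p = 0.0878, interval −3.11 to −1.15), with the WT samples again shared with the contrast that chose them. The intervals here and below hold for single genes and are not adjusted for the number of genes tested. The mean CPM in double mutants was 4.91-fold lower than in WT for Jph4 and 4.33-fold for Faim2, compared with 5.90-fold for Adamtsl1 and 6.87-fold for Kctd4.

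Double mutant replicate 1, with the highest mature oligodendrocyte score of any mutant sample, weighed on this contrast. Without it, all 5 genes passed the threshold in edgeR, with log2 fold changes of −3.05 for Jph4 (adjusted p = 0.0237) and −2.36 for Faim2 (adjusted p = 0.0489). Over all 17716 genes, 72 were then called lower and 202 higher, against 3 and 31 with all samples. The gain of calls was thus not particular to the 5 genes. Without any 1 of the other 7 samples, 0 of the 17716 genes were called lower, and so none of the 5. The adjusted p then reached 0.147 for Adamtsl1, 0.189 for Pdzd7 and 0.151 for Kctd4, each without WT replicate 5. No mutant sample reached the lowest WT sample for any of the 5 genes in either contrast. This held for 7.24% of all genes tested in Jab1 mutants and 3.58% in double mutants, but the 5 genes were chosen for such falls against these WT samples, so nothing is read from their separation.

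At the borders of the choice, Erbb3, a receptor of neuregulins, ranked between Jph4 and Faim2 in Jab1 mutants (log2 fold change −3.09 ± 0.40 SE, edgeR adjusted p = 0.00202), and BC051408 followed Faim2 (adjusted p = 0.00331). Kctd4 was next, in rank 5. In double mutants the gene after Kctd4 was Fgf7, a fibroblast growth factor, with an edgeR adjusted p of 0.0640.

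**Figure D2:**
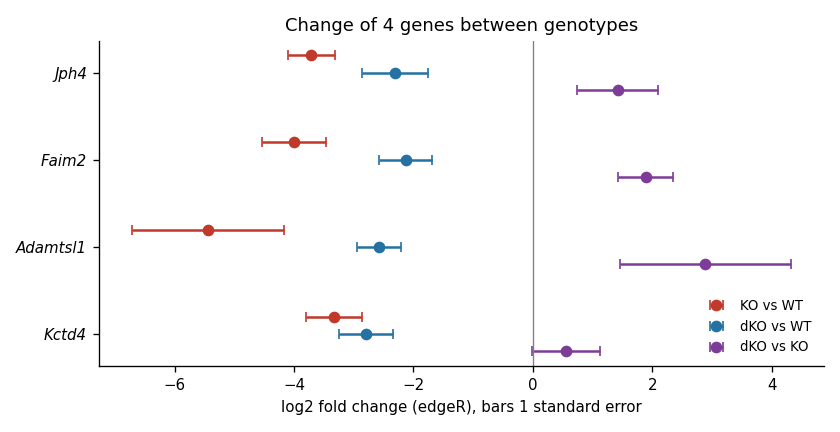
Log2 fold changes from edgeR for 4 of the genes, with bars of 1 SE, in Jab1 mutants against WT (KO vs WT, red), double mutants against WT (dKO vs WT, blue) and double against Jab1 mutants (dKO vs KO, purple). Pdzd7, at 0 counts in most mutant samples, has no fold to plot. The contrasts share samples, and Kctd4 shows the smallest dKO vs KO value, 0.55.

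The double mutants were then compared with Jab1 mutants directly, to ask whether the 5 genes were at another level when p21CIP1 was also missing. No gene of the 17716 (0% in each direction) passed the edgeR test in this contrast. At an unadjusted p under 0.05 there were 885 genes, and DESeq2 called 20 higher and 67 lower on the 8 samples, while limma-voom called 0 higher and 1 lower. Among the 5 genes, Faim2 was 3.71-fold higher in double mutants in mean CPM, with a log2 difference of 1.89 ± 0.46 (SE; edgeR, adjusted p = 0.713, 95% interval 0.88 to 2.90). DESeq2 gave 1.91 with an adjusted p of 0.0273 on the 8 samples and 1.90 with 0.0112 on all 12. The interval from edgeR, unlike the adjusted p, takes no account of the number of genes tested. Faim2 was chosen for its low values in these same Jab1 mutants, which by itself favours a higher level in double mutants.

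The difference for Adamtsl1 was 2.89 ± 1.43 (SE; edgeR, adjusted p = 0.9754), with a 95% interval of −0.27 to 6.06. It was 4.60 without Jab1-mutant replicate 2, 3.74 with a replicate block and 5.55 in limma-voom, and not called in any. All 4 double mutants exceeded all 4 Jab1 mutants for Faim2 and for Adamtsl1, which was the case for 1.22% of the genes tested. Jph4 differed by 1.42 ± 0.68 (SE; edgeR, adjusted p = 0.968, interval −0.08 to 2.91), with 3 of 4 double mutants above all Jab1 mutants, and by 0.68 without double mutant replicate 1. For Kctd4 the difference was 0.55 ± 0.57 (SE; edgeR, adjusted p = 0.9999, interval −0.72 to 1.81), and 2 of 4 double mutants were above. For Pdzd7, with 14 counts in all Jab1 mutants and 0 in all double mutants, a difference was not detectable at this depth. These contrasts use mutant samples that also chose the genes. The choice of Jph4 and Faim2 for low values in Jab1 mutants favours a higher level in double mutants. Nothing is therefore read from the separation of the mutants.

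Markers of some cell types also differed between the genotypes. In Jab1 mutants 6 of 15 mature oligodendrocyte markers fell, among them Opalin (log2 fold change −4.29 ± 0.78 SE, edgeR adjusted p = 0.00909) and Mag (−2.21 ± 0.58, adjusted p = 0.0423), and none rose, with a median of −2.06 against 0.02 over all genes. The median in double mutants was −1.09, and no marker was called. Mbp alone of the 15 had positive log2 fold changes, 0.27 in Jab1 mutants and 0.21 in double mutants, and was not called. It averaged 10790 ± 4468 CPM in WT (SD, n = 4), 13040 ± 9371 CPM in Jab1 mutants and 12600 ± 3741 CPM in double mutants. The mature oligodendrocyte score, the mean log2(CPM + 1) of the 15 markers, ranged from 9.53 to 10.78 in WT, from 6.80 to 9.12 in Jab1 mutants and from 7.82 to 9.89 in double mutants, the last being replicate 1. In such bulk samples, fewer cells of a type and less RNA per cell cannot be told apart.

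Over the 12 samples, the log2(CPM + 1) of Faim2 correlated with this score with r = 0.88, that of Jph4 and Adamtsl1 with 0.87, that of Pdzd7 with 0.71 and that of Kctd4 with 0.65. With the mean of each genotype removed, r was 0.70 for Faim2, 0.69 for Adamtsl1, 0.67 for Jph4, 0.35 for Pdzd7 and −0.16 for Kctd4. The points share the genotypes and the scaling to library size, so these are descriptions. Jab1-mutant replicate 2 had the highest oligodendrocyte score of its group, 9.12, and the highest Faim2 and Adamtsl1, yet the lowest Kctd4.

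The difference between genotypes in log2(CPM + 1) of each gene was also taken relative to that of the score. Relative to the score, Jph4 stood at −3.96 ± 0.28 (SD, n = 4) in WT, −5.22 ± 1.07 in Jab1 mutants and −5.19 ± 0.23 in double mutants, so that the 2 mutants differed by 0.02. Faim2 stood at −2.53 ± 0.82, −4.16 ± 0.34 and −3.24 ± 0.59, and Adamtsl1 at −4.04 ± 0.47, −6.82 ± 0.87 and −5.23 ± 0.51. Kctd4, at −4.01 ± 0.27, −4.87 ± 1.58 and −5.35 ± 1.09, had the widest spread in the mutants. The score itself differed from WT by −2.21 in Jab1 mutants and −1.24 in double mutants. Beyond the score, Jph4 differed from WT by −1.25 and −1.23, Faim2 by −1.64 and −0.71, Adamtsl1 by −2.78 and −1.20 and Kctd4 by −0.86 and −1.34, each pair giving first Jab1 mutants and then double mutants. The values for Pdzd7 were 0.09 and −0.95, which are set by the score alone where the gene is at 0 counts, since log2(CPM + 1) cannot fall below 0. How much of each fall goes with the share of oligodendrocyte RNA was not tested.

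**Figure D3:**
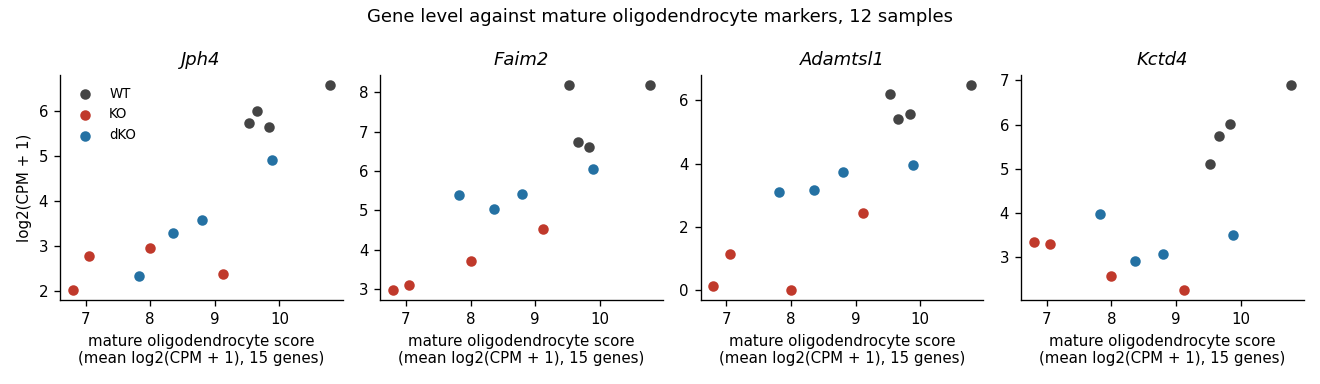
Level of 4 genes as log2(CPM + 1) (vertical) against the mature oligodendrocyte score of the same sample (horizontal), 12 samples coloured by genotype (KO, Jab1 mutants; dKO, double mutants). Over the 12 samples r is 0.87 for Jph4, 0.88 for Faim2, 0.87 for Adamtsl1 and 0.65 for Kctd4, and in each panel all mutant points lie below the lowest WT point, including that of dKO replicate 1 with a score of 9.89.

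Markers of other cells rose in Jab1 mutants. All 15 microglial markers were called higher (median log2 fold change 3.88), as were 7 of 10 endothelial markers (2.42), 5 of 9 mural markers (2.13) and 2 of 8 choroid plexus and ependyma markers (1.43). In double mutants no marker of these lists was called, with medians of 4.71, 1.91, 1.74 and 1.41. The microglial median there covers unlike samples, since the 15 markers summed to 386 to 18534 CPM, with replicate 3 the highest. The choroid plexus and ependyma markers summed to 292 to 4020 CPM in WT, 6393 to 24249 CPM in Jab1 mutants and 5343 to 23552 CPM in double mutants. The most abundant of them, Ttr, averaged 2079 ± 1664, 14350 ± 7392 and 11630 ± 8077 CPM (SD, n = 4) in the same order. Of the neuronal markers, 0 of 14 were called in any contrast, and their median was 1.07 in Jab1 mutants and 1.04 in double mutants. They summed to 212 to 295 CPM in WT, 305 to 826 CPM in Jab1 mutants and 292 to 806 CPM in double mutants.

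For the remaining lists in Jab1 mutants, 1 of 10 OPC markers (Cspg4, which is also a mural marker) and 1 of 9 markers of newly formed oligodendrocytes (Bmp4) rose, and 0 of 12 astrocyte markers were called, with medians of 0.56, 0.38 and −0.60. The part of these cells in the results for the 5 genes was not tested.

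The relatives of each gene were counted from lists of families, without the 5 genes themselves, which had been chosen for their falls. Of the junctophilins other than Jph4, 0 of 3 were called in Jab1 mutants (median log2 fold change −0.01, against 0.02 over all genes). Jph1 averaged 25.7 ± 9.43 CPM over the WT samples (SD, n = 4) and 5.53 ± 4.00 CPM in Jab1 mutants (log2 fold change −2.22 ± 0.77 SE, edgeR adjusted p = 0.110). Jph3 was at 5.17 and 9.22 CPM (log2 fold change 0.83 ± 0.61), and Jph2 was at 0.341 CPM in both genotypes. The median of the 3 is the value of Jph2, which has an SE of 1.95, so it does not describe an unchanged family. Of 14 genes for calcium release from the endoplasmic reticulum and store-operated entry (ryanodine and IP3 receptors, STIM, ORAI and SERCA), 13 were tested and 0 were called, with a median of 0.15.

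Of the TMBIM genes other than Faim2, 0 of 5 were called in Jab1 mutants (median −0.26). Tmbim1 averaged 817 ± 336 CPM over the WT samples (SD, n = 4) and 284 ± 173 CPM in Jab1 mutants (log2 fold change −1.52 ± 0.43 SE, edgeR adjusted p = 0.0566). In the Fas pathway, in which FAIM2 is known to act, 2 of 8 genes rose and 0 fell (median 1.14). The receptor gene Fas rose from 8.50 ± 4.09 to 40.7 ± 21.1 CPM (log2 fold change 2.26 ± 0.49, adjusted p = 0.0197), and Casp8, the initiator caspase of that receptor, from 3.203 ± 2.96 to 38.2 ± 15.1 CPM (3.58 ± 0.81, adjusted p = 0.0235). Both genes are also expressed by immune and endothelial cells, whose markers rose in the same samples as given above, although CD45+ cells had been gated out in the sort, and the part of those cells was not tested.

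Of the ADAMTS-like genes other than Adamtsl1, 5 were tested, 1 fell and 4 were not called (median −1.23). Adamtsl4, which encodes a matrix protein of fibrillin fibres, fell from 86.5 ± 49.7 to 20.98 ± 10.5 CPM (log2 fold change −2.04 ± 0.46 SE, edgeR adjusted p = 0.0233). Of the 19 ADAMTS proteases, 12 were tested, 2 fell and 0 rose (median −0.10). Adamts20 fell from 56.9 ± 12.3 to 12.4 ± 7.93 CPM (−2.20 ± 0.46, adjusted p = 0.0172) and Adamts4, an aggrecanase that oligodendrocytes are known to express, from 292 ± 188 to 59.8 ± 48.1 CPM (−2.29 ± 0.60, adjusted p = 0.0422).

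Of the Usher and ankle-link genes other than Pdzd7, 6 were tested and 0 were called in Jab1 mutants (median 1.21). The only negative values were those of Pcdh15 (log2 fold change −4.54 ± 1.30 SE, edgeR adjusted p = 0.0573) and of Adgrv1 (−2.80 ± 1.14, adjusted p = 0.172), the receptor of the ankle link. Pcdh15 is also one of the OPC markers. The other tested genes of the list had positive values, with Myo7a nearest the threshold (1.64 ± 0.46, edgeR adjusted p = 0.0514). Pcdh15, Adgrv1 and Myo7a were named after their values had been seen, as were Jph1 and Tmbim1. Of the KCTD genes other than Kctd4, 22 were tested, 1 fell, 1 rose and 20 were not called (median −0.36). Tnfaip1, a KCTD relative with a BTB domain, rose from 47.7 ± 4.35 to 123 ± 52.4 CPM (1.36 ± 0.32, adjusted p = 0.0287). Kctd8 was at 1.63 ± 1.46 CPM in WT and at 0 counts in all Jab1 mutants (edgeR adjusted p = 0.0460). It lies near the filter of 1 CPM, which no Jab1 mutant reached, so its call is given as a description.

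In double mutants against WT, Adamtsl1, Pdzd7 and Kctd4 were the called members of the families, and of the other list genes, including those of the Fas and calcium lists, 0 were called in edgeR. In double against Jab1 mutants 0 were called.

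**Figure D4:**
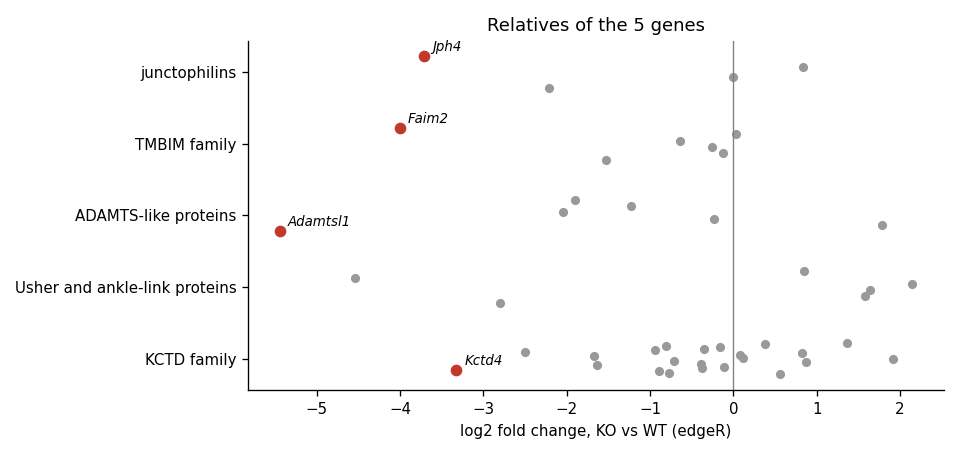
Log2 fold change in Jab1 mutants against WT (KO vs WT, edgeR) of the tested members of 5 families, with Jph4, Faim2, Adamtsl1 and Kctd4 in red. Pdzd7 and Kctd8, at or near 0 counts in Jab1 mutants, are not plotted, and Kctd8 was also called lower. Each red point lies to the left of the other plotted genes of its family. The red genes were chosen for falls against WT, so nothing is read from this position.

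The surroundings of each gene on its chromosome were examined. The 10 nearest tested genes on either side of the 5 were not called in any of the 3 contrasts, and the smallest edgeR adjusted p among them was that of Cntln, before Adamtsl1, with a log2 fold change of 1.23 ± 0.35 (SE, adjusted p = 0.0565) in Jab1 mutants. Kctd4 lies within the span of Gtf2f2, a subunit of the general transcription factor TFIIF, on the opposite strand and with 0 shared exon bases. WT samples held 23.7 ± 10.6 CPM of Gtf2f2 (SD, n = 4), Jab1 mutants 24.2 ± 6.20 CPM and double mutants 32.7 ± 12.5 CPM (log2 fold changes 0.03 and 0.45, edgeR adjusted p = 0.979 and 0.730).

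The span of Adamtsl1 overlaps that of Sh3gl2, which encodes the endocytic protein endophilin A1, on the same strand with 0 shared exon bases. Its level averaged 40.7 ± 7.94 CPM in the WT group (SD, n = 4), 21.3 ± 11.3 CPM in Jab1 mutants and 19.2 ± 1.05 CPM in double mutants (log2 fold changes −0.93 and −1.10, edgeR adjusted p = 0.202 and 0.147). The small RNA genes Gm26069 and Gm25811 within Adamtsl1 held at most 0 and 5 counts in a sample. Pdzd7 overlaps Lzts2, on the opposite strand, again with 0 shared exon bases. Lzts2 was at 137 ± 64.3 CPM in WT, 46.5 ± 13.6 CPM in Jab1 mutants and 85.9 ± 28.9 CPM in double mutants, and fell in Jab1 mutants (log2 fold change −1.56 ± 0.39, adjusted p = 0.0334) but was not called in double mutants (−0.69 ± 0.40, adjusted p = 0.517). No strand setting of the counting is given in the sources used here, so reads of overlapping genes are assigned with some uncertainty.

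**Figure D5:**
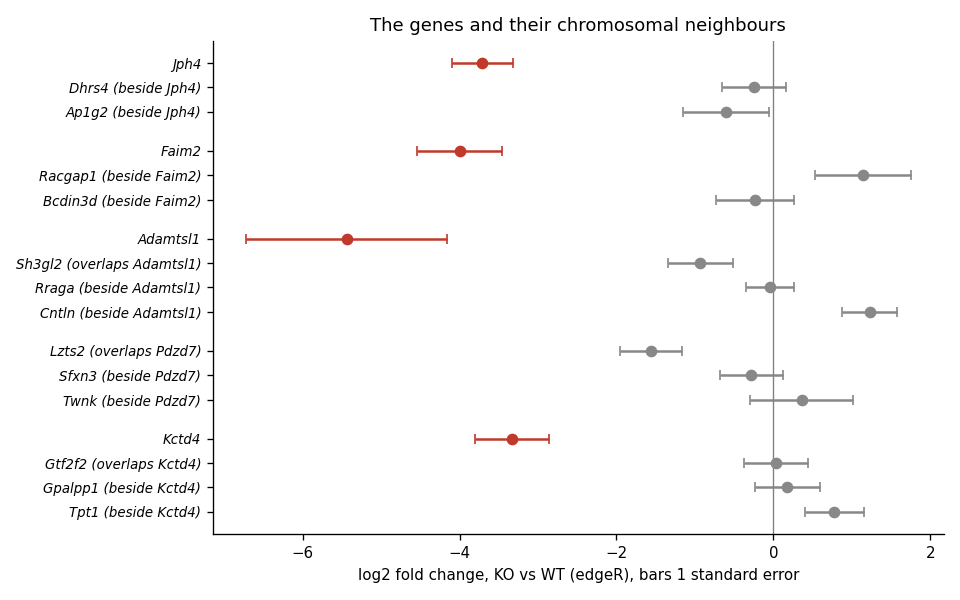
Log2 fold change in Jab1 mutants against WT (KO vs WT, edgeR, bars 1 SE) of 4 of the genes (red) and of their tested overlapping or nearest genes (grey), with those of Pdzd7 shown without Pdzd7 itself. Of the grey genes Lzts2 alone was called, at −1.56.

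The genes with the most similar profiles over the 12 samples were found by Pearson correlation of log2(CPM + 1), as a description of samples that share their genotypes. For Jph4 they were Olfml1 (r = 0.964), Hs3st1 (0.962), a heparan sulfate sulfotransferase, and Cobl (0.961), an actin nucleator. WT samples held 247.0 ± 88.7 CPM of Olfml1 (SD, n = 4), against 41.0 ± 17.1 CPM in Jab1 mutants and 75.1 ± 40.5 CPM in double mutants. For Faim2 they were the tetraspanin gene Cd82 (0.987), Ttyh2 (0.982) and Adamtsl1 (0.968), and for Adamtsl1 the adhesion gene Ncam1 (0.977), Cd82 (0.976) and Igsf8 (0.969). Cd82 was at 325 ± 162, 44.0 ± 21.8 and 105.5 ± 26.8 CPM, with double mutants between the others as for Faim2.

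Pdzd7 and Kctd4 had other nearest genes. For Pdzd7 they were Spock3 (r = 0.959), a matrix proteoglycan, A930003A15Rik (0.947) and the carbonic anhydrase gene Car13 (0.943), and for Kctd4 A930003A15Rik (0.946), B230344G16Rik (0.938) and Pdzd7 (0.935). Spock3 averaged 92.5 ± 42.6 CPM over the WT samples (SD, n = 4), 0.590 ± 0.713 CPM in Jab1 mutants and 2.11 ± 2.15 CPM in double mutants, and was low in both mutants as Pdzd7 was. Within the 5 genes, r ranged from 0.79 to 0.97. With genotype means removed, the highest was that of Faim2 and Adamtsl1, 0.72, followed by that of Pdzd7 and Kctd4, 0.48, while Kctd4 stood at −0.19 with Faim2 and 0.03 with Jph4.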

How the data were processed

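Libraries of 12 samples, grouped by their labels, were made by the authors with SMART-Seq v4 and paired-end reads. The submitters' processing notes name Trimmomatic 0.32, STAR 2.5.3a, featureCounts and the GRCm38 build. The table deposited by the authors gives raw, unnormalized counts for each gene symbol. Strandedness and the treatment of reads with several matches are not given in the sources used here. Of 55376 symbols, 54402 (98.2%) matched 1 gene of GENCODE M21, used here for positions.

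CPM were scaled by TMM. The main test was edgeR 4.0.16 (quasi-likelihood; R 4.3.3) on the 8 samples compared, over genes that reached 1 CPM in 4 or more of 12 samples, with Benjamini-Hochberg adjustment over all genes tested and a threshold of 0.05. Alternatives were DESeq2 1.42.0 (8 or 12 samples), RLE size factors, no filter, a joint edgeR fit of 12 samples, a replicate block, limma-voom (limma 3.58.1) with quality weights, and each sample left out. Scripts were tested on simulated data.

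Total counts had a median of 103095818. The floor of 3 counts per library covers counting error only, since no molecular identifiers were used. Scores and profiles used log2(CPM + 1). Samples are separate pools of brains.

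The 5 genes and all lists were chosen with earlier results of these data known. Other genes named are up to 3 called per family or pathway list, chromosomal neighbours and overlapping genes, the 3 nearest profiles, and the genes ranked beside the 5. Marker genes named are examples.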

Additional observations from a re-analysis of the deposited data

Results flagged for a closer look

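The level of Pdzd7 in Jab1-mutant replicate 4, 0.188 CPM from 14 counts, stood apart from the other 3 Jab1-mutant samples, each at 0 counts. With 3 samples tied at 0, any count in the fourth makes its gap to the nearest sample equal to the whole range of the group, so Dixon's test was bound to single it out and its usual chance rate of about 1 in 20 groups does not apply. The value is below that of every WT sample (2.84 to 4.92 CPM).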

How the results depend on the processing

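No value of the 5 genes changed direction under any of the alternatives run. Of 224 values, 177 kept their side of the threshold, 36 lost it and 11 gained it. The number of genes called in Jab1 mutants against WT, 1354, became 2689 with DESeq2 (2314 on 12 samples), and 678 to 1863 when a sample was left out. In double mutants against WT the 34 calls became 862 with DESeq2 (923 on 12 samples), 21 without a filter, 164 with all 12 samples in one edgeR fit, and 1 to 274 with a sample left out, the extremes without double mutant replicates 2 and 1. In double against Jab1 mutants the 0 calls became 87 with DESeq2 (152 on 12 samples), 1 with limma-voom, and 0 to 2 with a sample left out. The causes were not tested.

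For Pdzd7 in Jab1 mutants the adjusted p was 0.000615 with DESeq2 and 0.0132 on 12 samples, and 0.00978 to 0.120 with a sample left out. For Adamtsl1 the log2 fold change was −7.17 to −5.06 with a sample left out. In double mutants against WT, DESeq2 called Jph4 (−2.30 on 8 and on 12 samples) and Faim2 (−2.10 on both). Leaving out a sample gave −3.05 to −2.01 for Jph4, −2.36 to −1.84 for Faim2, −2.76 to −2.33 for Adamtsl1, −3.08 to −2.36 for Kctd4 and an adjusted p of 0.0242 to 0.189 for Pdzd7. Calls there were lost for Adamtsl1 with DESeq2 on 12 samples (−2.56, adjusted p = 0.261), with 12 samples in edgeR (−2.56, adjusted p = 0.313) and with limma-voom (−2.34, adjusted p = 0.0571), for Kctd4 without a filter (−2.87, adjusted p = 0.0506), and for Pdzd7 without a filter (adjusted p = 0.0506), with 12 samples in edgeR (0.0581) and with limma-voom (0.175). Faim2 passed in double against Jab1 mutants with DESeq2, at 1.91 and 1.90, in a contrast that uses the Jab1 mutants by which it was chosen. Pdzd7 had no value in that contrast without Jab1-mutant replicate 4, since no counts remained.

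Samples with the same replicate number did not deviate together (correlations of −0.188 to 0.083), so the numbers are not taken as pairs. With the replicate block, edgeR called 660 genes in Jab1 mutants and 1 in double mutants against WT. Kctd4 then stood at −2.37 (adjusted p = 0.0525) in Jab1 mutants, and in double mutants Adamtsl1 at −2.83 (0.434) and Kctd4 at −2.68 (0.267), with an adjusted p of 0.504 for Pdzd7.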
